A study of Mus musculus with 3 samples.

Results

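Mouse retinal RNA labelled Crx KO was compared with mouse retinal RNA labelled wild-type, both at postnatal day 12, on 1-colour Agilent expression arrays. The comparison takes the arrays whose genotype label reads Crx KO or wild-type, which are 2 of the 3 arrays in the series. The remaining array, labelled Otx2 KI and of the same age and tissue, is read beside them for the genes named. KO and KI are the usual short forms of knockout and knock-in. The labels give neither the part of Crx that is changed nor the strain, and they do not say how many retinas or mice a sample holds. There is 1 array per genotype, so no difference has a check between mice, no test across samples was possible, and every fold describes these RNA preparations.

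Crx encodes a homeodomain transcription factor made in the photoreceptors and their precursors. It binds the promoters and enhancers of rod and cone genes and activates them together with partners such as Nrl, and mice without it do not build photoreceptor outer segments. Otx2 encodes a related homeodomain factor that acts before Crx in the same cells. At the age studied, rods and cones have been born and are growing their outer segments, and the inner retinal neurons are maturing.

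Values are called scaled signal. This is the Cy3 intensity of a probe after the scanner software's background subtraction, divided by the 75th percentile of its array and multiplied by that of the wild-type array. Of the 59305 non-control spots, 63.5% to 67.1% were well above background on the 3 arrays, 0 were saturated, and all 3 arrays lay on 1 slide read in 1 scan. Among probes present at 10 spots, the log2 signal of 1 probe had an SD of 0.074 to 0.077 (median over probes). Of 21368 genes with a symbol, 16050 were well above background on both the wild-type and the Crx KO array and are called measured. By the scanner's own error model a typical gene's log2 difference had an error of 0.20, which covers the measurement and not the spread between mice.

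Most genes differed little. The median log2 difference, Crx KO minus wild-type, was -0.01. At 1.5-fold or more, 13.3% of the measured genes differed, 8.25% lower and 5.02% higher. At 2-fold or more, the size used for all counts here, 863 genes differed (5.38% of those measured), 550 of them lower (3.43%) and 313 higher (1.95%). At 4-fold or more 1.14% differed, with 122 lower (0.76%) and 61 higher (0.38%), and at 8-fold or more 45 and 25. The median wild-type scaled signal of the lower genes, 729, was close to that of all measured genes, 716, and their median in Crx KO was 204. The higher genes were dimmer, with a median of 142 in wild-type and 536 in Crx KO. In a bulk tissue, fewer cells of a type and less RNA per cell cannot be told apart, and this holds for every lower gene below.

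**Figure D1:**
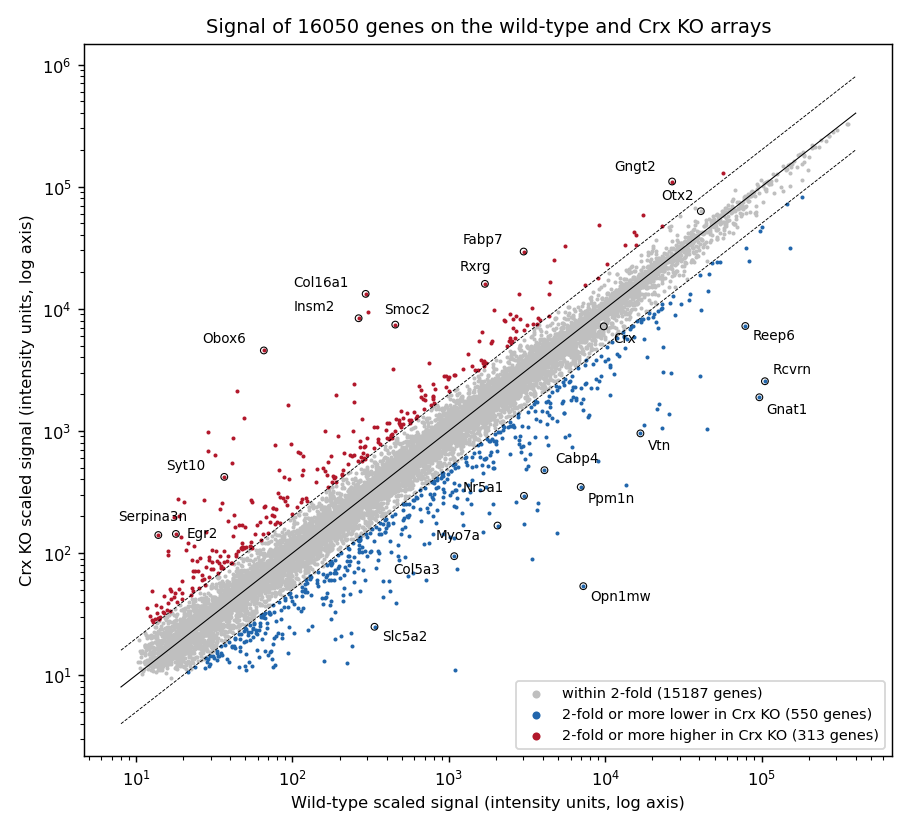
Each point is 1 of the 16050 measured genes, with its scaled signal on the wild-type array on the x axis and on the Crx KO array on the y axis, both on log axes in intensity units. The solid line marks equality and the dashed lines 2-fold; 550 genes lie below the lower dashed line, 313 above the upper one, and Crx lies between them.

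The Crx probe read 9790 in wild-type, 7177 in Crx KO and 1062 in Otx2 KI, a log2 difference of -0.45 for Crx KO. The labels do not place that probe inside or outside the altered stretch of Crx, so its signal does not check the genotype. The Otx2 probe read 40886, 62981 and 63860 on the same arrays, 1.54-fold higher in Crx KO. Crxos, the gene on the opposite strand beside Crx, read 2965 in wild-type, 749 in Crx KO and 3947 in Otx2 KI. It was 3.96-fold lower in Crx KO, and its least changed probe gave log2 -0.75. Of the 3 genes, Crxos is the one past 2-fold in Crx KO.

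The largest decreases among genes brighter than the median measured gene were led by the machinery of light detection and its calcium feedback. Gnat1, the rod transducin alpha subunit, read 96776 in wild-type, 1885 in Crx KO and 781 in Otx2 KI, 51.3-fold lower in Crx KO (log2 -5.68). Rcvrn, which encodes recoverin, a calcium sensor that restrains the opsin kinase, read 105046, 2551 and 1616 and was 41.2-fold lower. Guca1b, an activator of the guanylate cyclase that restores cGMP, read 23222, 1051 and 783, 22.1-fold lower (log2 -5.08 with its probes averaged). The phosphodiesterase of the same pathway was represented by a rod and a cone gene. Pde6a, the rod catalytic subunit, read 40311, 2799 and 887 (14.4-fold lower), and Pde6h, the cone inhibitory subunit, read 25576, 1362 and 2980.5 (18.8-fold lower). In each of these 5 genes wild-type was the high array and both mutant arrays were far below it.

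Other large decreases included genes of photoreceptor survival, trafficking and gene control. Nxnl1, which encodes the rod-derived cone viability factor, read 9047 in wild-type, 569 in Crx KO and 636 in Otx2 KI, 15.9-fold lower (log2 -3.38 with its probes averaged). Its relative Nxnl2 read 21518, 1523 and 1692, 14.1-fold lower. Both belong to the thioredoxin-like proteins. Reep6, a membrane-shaping protein of the rod endoplasmic reticulum, read 78717, 7226 and 6164, 10.9-fold lower. Rtbdn, which encodes the riboflavin-binding protein retbindin, read 23467, 3059 and 2809.9, 7.67-fold lower. Among the regulators, the ankyrin repeat gene Ankrd33 read 17701, 1123 and 1235 (15.8-fold lower), and the orphan nuclear receptor gene Esrrb read 22125, 1666 and 652 (13.3-fold lower). The Otx2 KI signal of Esrrb was below that of Crx KO, while those of Ankrd33 lay close together.

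Several more of the 20 largest decreases among brighter genes encode enzymes, adhesion proteins and signalling regulators. Ppm1n, a metal-dependent protein phosphatase gene, read 6973 in wild-type, 347 in Crx KO and 783 in Otx2 KI, 20.1-fold lower. Vtn, which encodes the adhesive plasma and matrix protein vitronectin, read 16792, 954 and 839.8, 17.6-fold lower. Alpl, the tissue-nonspecific alkaline phosphatase, read 6149, 731 and 451, 8.41-fold lower. Plpp2, a lipid phosphate phosphatase gene, read 26496, 2990.3 and 2109, 8.86-fold lower. Gckr, the regulator of glucokinase, was 6.36-fold lower (3116, 489.8 and 297). Tnfaip3, the ubiquitin-editing inhibitor of NF-kappa-B signalling also called A20, was 6.29-fold lower (5863, 931 and 749). Gramd1c, a sterol transfer protein gene, was 6.22-fold lower (5547, 891 and 661).

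**Figure D2:**
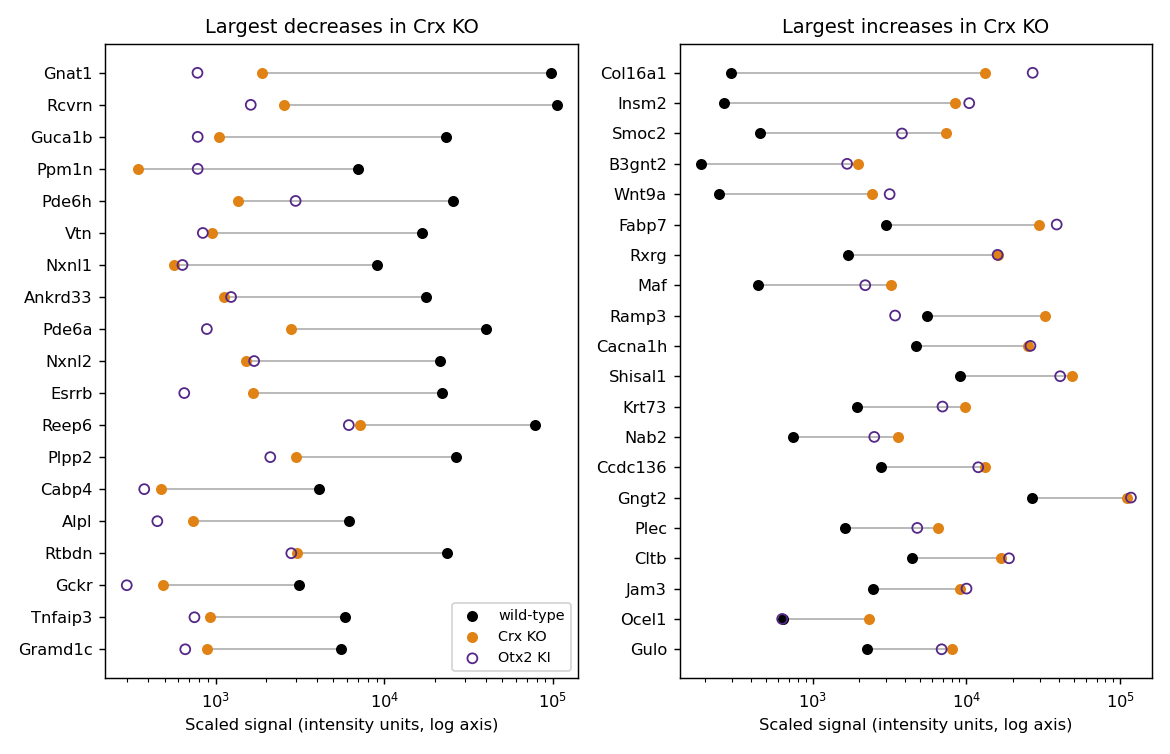
Scaled signal (x axis, log scale, intensity units) of 19 genes with the largest decreases and 20 with the largest increases in Crx KO among genes brighter than the median, on the wild-type (black), Crx KO (orange) and Otx2 KI (open purple) arrays. Gnat1 runs from 96776 to 1885 and Col16a1 from 294 to 13241, and for Ramp3 and Ocel1 the Otx2 KI point lies near or below wild-type.

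The largest increases held matrix, signalling and developmental genes. Col16a1, a collagen that sits on the surface of other fibrils, read 294 in wild-type, 13241 in Crx KO and 26926 in Otx2 KI, 45.1-fold higher in Crx KO (log2 5.49, and 5.17 on its least changed probe). Insm2, a zinc finger gene of neuroendocrine cells, read 265, 8365 and 10420.1, 31.6-fold higher (log2 3.97 with its probes averaged). Smoc2, a calcium-binding matrix protein gene, read 454, 7415 and 3807, 16.3-fold higher. These genes were dim in wild-type and bright on both mutant arrays. Wnt9a, a secreted Wnt ligand, read 248, 2429.8 and 3166 (9.82-fold higher), and B3gnt2, which extends the sugar chains of glycoproteins, read 189, 1979 and 1675 (10.5-fold higher). Fabp7, the brain fatty acid binding protein found in neural progenitors and glia, read 3008, 29413 and 38576, 9.78-fold higher.

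Further increases were seen in transcription regulators, membrane proteins and cytoskeletal genes. Rxrg, the retinoid X receptor of developing cones, read 1701 in wild-type, 15994 in Crx KO and 15927 in Otx2 KI, 9.40-fold higher, although its other probe gave log2 0.75. Maf, a leucine zipper factor related to Nrl, read 441, 3208 and 2198, 7.27-fold higher. Nab2, a corepressor that binds Egr proteins, read 747, 3611 and 2515, 4.84-fold higher. The calcium channel gene Cacna1h, which encodes a T-type pore subunit, read 4685, 25214 and 26037, 5.38-fold higher. Jam3, a junctional adhesion molecule, read 2455, 9114 and 10006 (3.71-fold higher), and the cytoskeletal linker Plec 1621, 6502 and 4787 (4.01-fold higher). Shisal1 was 5.30-fold higher (9097, 48234 and 40638), the keratin gene Krt73 was 5.08-fold higher, the clathrin light chain gene Cltb 3.76-fold and Gulo, the last enzyme of vitamin C synthesis, 3.58-fold.

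For a pair of these genes the Crx KO array alone was high. Ramp3, which modifies the ligand choice of the calcitonin family of receptors, read 5501 in wild-type, 32552 in Crx KO and 3436 in Otx2 KI, 5.92-fold higher in Crx KO. Ocel1 read 643, 2328 and 634, 3.62-fold higher. A zinc finger gene from the symbol families, Zfp963, read 54.3, 270.2 and 55.6 (4.98-fold higher). Its log2 difference was 1.45 with normexp, another background correction that models the unsubtracted signals and gives smaller folds where 1 array is dim. Kif5b, a heavy chain of the kinesin motor, went the other way, at 660.5, 183 and 658, 3.61-fold lower. With single arrays it cannot be told whether this belongs to the genotype or to the sample.

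The photoreceptor lists moved in different ways. Over all measured genes 3.43% were 2-fold or more lower and 1.95% higher. Of 18 rod genes 16 were 2-fold or more lower (14 with quantile normalization) and 0 higher, with a median of -1.51 against -0.01 over all measured genes. Many of these decreases were moderate. Sag, which encodes rod arrestin, had a log2 difference of -1.34, the channel subunits Cngb1 and Cnga1 -1.75 and -1.26, and the disc rim protein gene Prph2 -1.13. Prph2's partner Rom1 was within 2-fold, with 198681 in wild-type and 137485 in Crx KO (log2 -0.53). The rod fate regulators were near or within the threshold, with Nrl at -1.01 and Nr2e3 at -0.38.

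The cone list was split, with 5 of its 14 measured members lower, 3 higher and a median of -0.34. Opn1mw, the medium-wavelength cone opsin, read 7242 in wild-type, 53.5 in Crx KO and 71.7 in Otx2 KI, 135-fold lower (log2 -7.08, and -5.73 with normexp). The cone arrestin gene Arr3 read 7930.1, 1361 and 724 (5.83-fold lower), and the cone phosphodiesterase gene Pde6c 11428, 2909.7 and 4321 (3.93-fold lower). On the other side, Gngt2, the cone transducin gamma subunit, read 26795, 110149 and 117238 (4.11-fold higher), and Ccdc136 read 2798, 13279 and 11921 (4.75-fold higher). Cone genes of the same cascade lay between, with the transducin subunit genes Gnat2 at log2 -0.31 and Gnb3 at 0.56 and the channel subunit genes Cnga3 at -0.40 and Cngb3 at 0.67. Thus members of 1 transducin, Gnat2, Gnb3 and Gngt2, were close to, above and far above wild-type.

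Genes of the photoreceptor cilium and of the Bardet-Biedl and Usher protein groups were shifted down as a list. Of 46 measured, 9 were 2-fold or more lower and 1 was higher, with a median of -0.37, and 37 of the 46 were below 0. The share past 2-fold was 21.7%, against 5.38% over all measured genes. Myo7a, the Usher syndrome myosin found in photoreceptors and pigment epithelium, read 2047 in wild-type, 168 in Crx KO and 579 in Otx2 KI, 12.2-fold lower. Fam161a, a protein of the connecting cilium, read 5254, 1678 and 1208 (3.13-fold lower), and Bbs5, a subunit of the ciliary coat complex, 4455, 1561 and 1653 (2.85-fold lower). The axoneme gene Rp1 (log2 -1.07), the connecting cilium scaffold Rpgrip1 (-1.10) and Tulp1 (-1.05) were just past 2-fold. Rpgr, whose protein binds that scaffold, was at 0.28, and intraflagellar transport genes were near 0, for example Ift88 at -0.15 and Ift57 at 0.23. The 1 higher member, the Usher gene Ush1c, was dim (25.6, 90.7 and 19.2) and within 2-fold with normexp (log2 0.63).

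Glucose metabolism genes had a median of -0.18, and 29 of 35 measured were below 0, with 4 lower by 2-fold or more and 1 higher. The share past 2-fold was 14.3%, against 5.38% over all measured genes. Hk2, the hexokinase enriched in photoreceptors, read 1231 in wild-type, 328 in Crx KO and 292 in Otx2 KI, 3.75-fold lower. Pfkfb2, which sets the level of the glycolytic activator fructose 2,6-bisphosphate, read 2821, 787 and 639.6 (3.58-fold lower). Slc16a8, a lactate transporter of the pigment epithelium, read 389, 148 and 185 (2.64-fold lower). The fourth was Nxnl1, listed here because its product acts on glucose uptake by cones. Txnip, an inhibitor of glucose uptake, read 505, 1275 and 1256, 2.52-fold higher. The abundant enzymes moved less, with log2 -0.68 for the lactate dehydrogenase gene Ldha, -0.57 for Hk1, -0.53 for Pkm and -0.19 for Gapdh, and -0.63 for the glucose transporter gene Slc2a1.

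Energy and nucleotide groups had 1 or 2 genes each past 2-fold, too few to tell their shares apart. The share was 9.09% for nucleotide and creatine genes, 2.70% for Nduf genes and 3.85% for oxidative defence genes. Over all measured genes it was 5.38%. Of 22 creatine, adenylate and guanine nucleotide genes 2 were lower, 0 were higher and the median was 0.03. Guk1, the guanylate kinase that feeds the cGMP cycle, read 13364 in wild-type, 4798 in Crx KO and 4328 in Otx2 KI, 2.79-fold lower. Ckmt1, the mitochondrial creatine kinase, read 21188, 7803 and 7568, 2.72-fold lower. Of 37 measured genes whose symbols start with Nduf, subunits of respiratory complex I and their relatives, 30 were below 0 with a median of -0.13. The 1 past 2-fold was Ndufa4l2 (log2 -1.31). Among 26 genes of oxidative defence, Gpx4, which reduces lipid peroxides, was the 1 lower, at 54517, 24247 and 27948 (2.25-fold).

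Retinoid and lipid genes moved both ways. The share past 2-fold was 26.7% for retinoid and 14.3% for fatty acid and sterol genes, against 5.38% over all measured genes. Of 30 retinoid genes 6 were lower and 2 higher (3 and 2 with normexp), with a median of -0.01. Abca4, the transporter that clears retinal from discs, read 5447 in wild-type, 1389.7 in Crx KO and 1649.7 in Otx2 KI, 3.92-fold lower, while Rbp4, the serum retinol carrier, read 116, 623 and 337, 5.36-fold higher. The reductase genes Dhrs3 (2.27-fold) and Rdh12 (2.19-fold) were lower, and Rbp3, the carrier between photoreceptors and pigment epithelium, was at log2 -0.46. Among 35 fatty acid and sterol genes 2 were lower, 3 were higher and the median was -0.09. Within the fatty acid binding proteins, Fabp5 read 15752, 33414 and 35739.7 (2.12-fold higher) beside Fabp7, whereas Fabp12 read 14352, 6767 and 5416 (2.12-fold lower). Abca1, which exports cholesterol, read 961, 2831 and 2833 (2.95-fold higher), and Adipor1, a receptor needed to keep docosahexaenoic acid in photoreceptors, read 5422, 2391 and 2284 (2.27-fold lower).

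At the synapse, 3 of 32 ribbon synapse genes were lower, 1 was higher and the median was -0.24. The share past 2-fold was 12.5% here and 14.3% for the neuropeptide and amine genes below, against 5.38% over all measured genes. Cabp4, which tunes the calcium channel of the photoreceptor terminal, read 4086 in wild-type, 477 in Crx KO and 377 in Otx2 KI, 8.57-fold lower. Mpp4, a scaffold of the same terminal, read 10807, 1979.6 and 1438 (5.46-fold lower). The complexins split, with Cplx4 of rods and cones 2.75-fold lower (1849, 673 and 507) and Cplx3 2.11-fold higher (7384, 15592 and 14545). Among 28 neuropeptide and amine genes 3 were lower (2 with normexp), 1 was higher and the median was -0.02. Drd4, the dopamine receptor of photoreceptors, read 30339, 10914 and 5512 (2.78-fold lower). Tph1, the first enzyme of serotonin and melatonin synthesis, read 188, 32.9 and 32.9 (5.72-fold lower, log2 -1.27 with normexp). Syt10, a synaptotagmin gene, read 36.6, 420.2 and 26.7, 11.5-fold higher in Crx KO (log2 2.14 with normexp) and not in Otx2 KI.

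**Figure D3:**
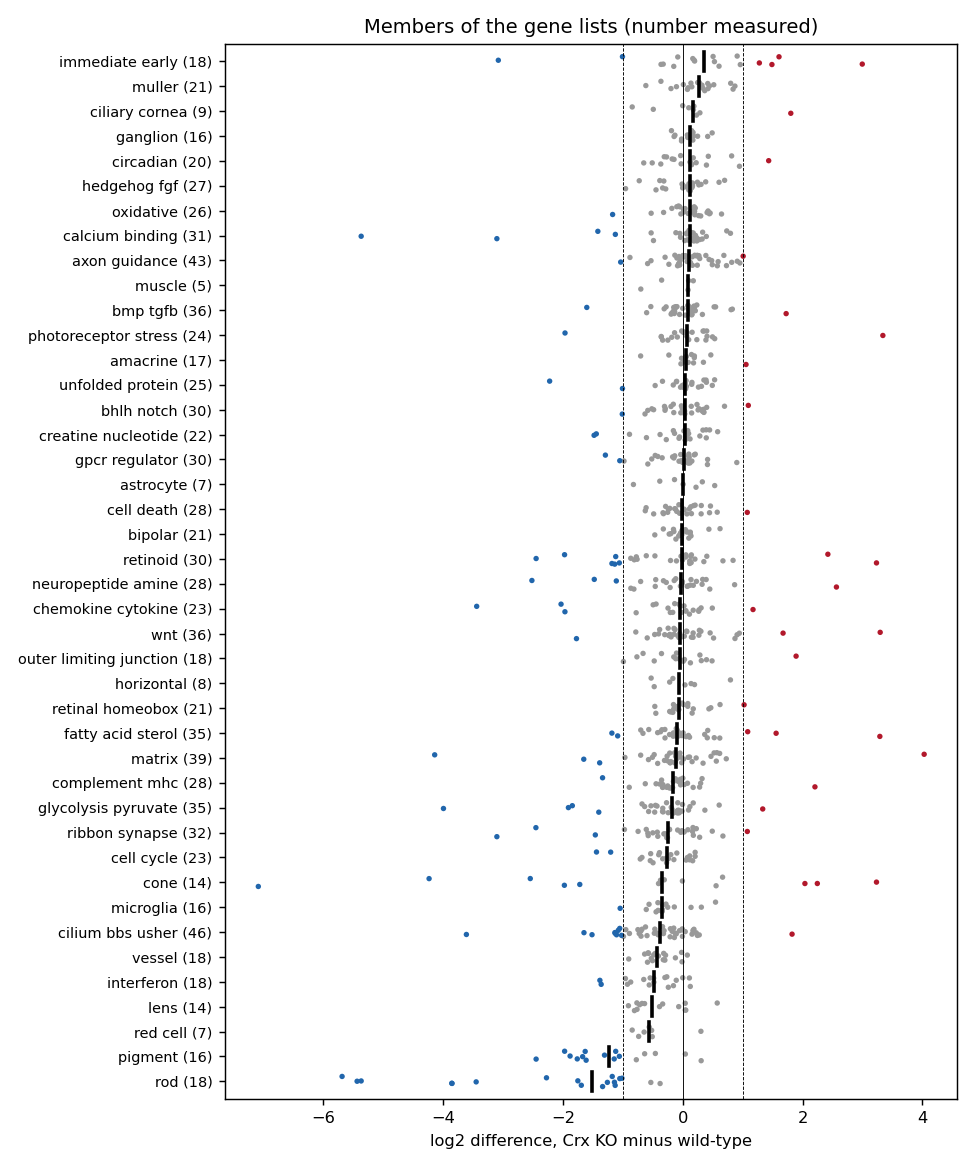
Each row is 1 of 42 gene lists with its number of measured members, each point is a member's log2 difference (Crx KO minus wild-type, x axis), and the black bar is the list's median. Dashed lines mark 2-fold; the rod (-1.51) and pigment (-1.22) medians lie beyond the lower line, and those of all other lists lie within 2-fold.

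Ion channel and transporter families were largely within 2-fold, with large decreases in a few members. The share past 2-fold was 8.86% for Kcn genes, 9.33% for solute carriers and 4.17% for calcium channels. Over all measured genes it was 5.38%. Of 79 measured potassium channel genes whose symbols start with Kcn, 4 were lower and 3 higher (4 and 1 with normexp), with a median of 0.10. Kcnj14, an inward rectifier, read 3662 in wild-type, 226 in Crx KO and 156 in Otx2 KI, 16.2-fold lower. Kcnv2, a modifying subunit of a photoreceptor potassium channel, read 18549, 4007 and 3252 (4.63-fold lower). Of 300 solute carrier genes 17 were lower and 11 higher (10 and 2 with normexp), with a median of -0.04. Slc24a1, the rod sodium and calcium exchanger, read 3696, 256 and 130.2 (14.4-fold lower), and Slc5a2, a sodium and glucose cotransporter best known from kidney, 335, 24.9 and 28.2 (13.4-fold lower, log2 -2.12 with normexp). Of 24 voltage-gated calcium channel genes Cacna1h was the 1 past 2-fold. Gabrr3, a GABA receptor subunit, read 245, 993 and 1049.5, 4.06-fold higher.

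Groups of regulator and clock genes had medians near 0. Their shares past 2-fold were 4.76% for retinal homeobox, 9.52% for nuclear receptor, 5% for clock and 6.25% for forkhead genes. Over all measured genes the share was 5.38%. Among 21 retinal homeobox genes 0 were lower and 1 was higher, with a median of -0.07. That gene was Six6, which read 3659.9 in wild-type, 7446 in Crx KO and 6848 in Otx2 KI, 2.03-fold higher. Among 42 nuclear receptor genes 2 were lower and 2 higher, with a median of 0.05. Besides Esrrb and Rxrg they included Nr5a1. Nr5a1, the steroidogenic factor, read 3023, 294 and 265, 10.3-fold lower. Of 20 clock genes 0 were lower and 1 was higher, with a median of 0.13. Of 32 forkhead genes 2 were higher, Foxo6 (1320.5, 4242 and 4473, 3.21-fold) and Foxp4 (log2 1.18, and 0.92 on its least changed probe), and 0 were lower.

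In signalling and matrix groups the share past 2-fold rested on few genes. It was 8.33% for Wnt pathway genes, 5.56% for BMP and TGF-beta genes, 10.3% for matrix genes and 21.6% for collagen genes. Over all measured genes it was 5.38%. Of 36 Wnt pathway genes 1 was lower and 2 were higher, with a median of -0.04. Besides Wnt9a these were Wnt3 (log2 1.67) and Wnt9b (log2 -1.77), both dim and both within 2-fold with normexp (0.71 and -0.86). Bmp4, a ligand that patterns the eye, read 316 in wild-type, 104 in Crx KO and 219 in Otx2 KI, 3.03-fold lower, and was the 1 lower of 36 BMP and TGF-beta genes. The 1 higher was another ligand gene, Bmp6 (log2 1.73, and 0.85 with normexp). Of 39 matrix genes 3 were lower and 1 higher, with a median of -0.12. They were Vtn, Smoc2 and the thrombospondins Thbs4 (log2 -1.65) and Thbs1 (log2 -1.38). Of 37 collagen genes 5 were lower and 3 higher (1 and 2 with normexp). Opposite to Col16a1, Col5a3 read 1082, 94.2 and 71.8, 11.5-fold lower (log2 -2.75 with normexp). Cldn7, a tight junction claudin, read 1084, 134 and 133, 8.10-fold lower. Hedgehog and fibroblast growth factor pathway genes had 0 of 27 members past 2-fold.

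Immediate early genes had a median of 0.35, the highest of the 42 lists. Of 18 measured, 4 were higher and 2 lower (4 and 1 with normexp). The share past 2-fold without normexp was 33.3%, against 5.38% over all measured genes. Egr1, a zinc finger factor induced by activity and injury, read 4359.6 in wild-type, 13282 in Crx KO and 7802 in Otx2 KI, 3.05-fold higher. Dusp1, a phosphatase that switches off MAP kinases, read 415, 1165 and 1135 (2.81-fold higher), and Fos 482, 1169 and 718 (2.43-fold higher). Egr2 was dim in wild-type, at 143 in Crx KO and 150.1 in Otx2 KI, and 7.98-fold higher (log2 1.23 with normexp). For Egr1 and Fos the Otx2 KI array lay between the other arrays. Ier3 was opposite to them, at 1797, 213 and 198, 8.43-fold lower.

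Stress, death and interferon lists held 1 or 2 genes each past 2-fold. The share was 8.33% for photoreceptor stress, 3.57% for cell death, 8% for unfolded protein and 11.1% for interferon response genes. Over all measured genes it was 5.38%. Photoreceptor stress genes had 1 lower and 1 higher of 24, with a median of 0.07. The acute phase gene Serpina3n read 13.9 in wild-type, 140.3 in Crx KO and 13.9 in Otx2 KI, 10.1-fold higher (log2 1.46 with normexp). The glial filament gene Gfap was at log2 0.53. Of 28 cell death genes 1 was higher (0 with normexp), 0 were lower and the median was -0.01. Trib3, a pseudokinase of the integrated stress response, read 1117, 239.9 and 213, 4.66-fold lower, 1 of 2 lower among 25 unfolded protein genes (1 lower with normexp or centring). Serping1, the C1 inhibitor of complement, read 196, 904 and 929.6, 4.62-fold higher. Interferon response genes had a median of -0.48, with 15 of 18 below 0 and 2 lower, Irf7 (log2 -1.36) and Usp18 (log2 -1.38), both within 2-fold with normexp.

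Markers of the inner retinal neurons had medians near 0. Over all measured genes the share past 2-fold was 5.38%, so lists this small can hold 0 or 1 by that share alone. Bipolar genes had 0 of 21 members past 2-fold and a median of -0.01, horizontal cell genes 0 of 8 (-0.06) and ganglion cell genes 0 of 16 (0.13). Amacrine genes had 1 of 17 higher (0 with normexp), with a median of 0.06. A further amacrine gene, Ptf1a, was well above background on the Crx KO array but not on wild-type, and was at least 2-fold higher. The photoreceptor and bipolar factor Otx2 was the highest of the bipolar list. Muller glia genes had a median of 0.28, with 17 of 21 above 0 and none past 2-fold. The potassium channel gene Kcnj10 read 3041 in wild-type, 5565 in Crx KO and 3257 in Otx2 KI (1.83-fold higher), and the carbonic anhydrase gene Car2 21052, 36676 and 32534 (1.74-fold higher).

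Pigment cell markers were lower on the Crx KO array. Over all measured genes 3.43% were 2-fold or more lower. Of 16 measured pigment epithelium and melanocyte genes 11 were 2-fold or more lower and 0 higher, with a median of -1.22 (6 lower and -0.92 with normexp), and their summed signal was 29126 in wild-type and 12538 in Crx KO. Of the 2 other members, Best1 was not well above background on either array and Slc45a2 was so on wild-type alone. The melanosome gene Pmel read 1943 in wild-type, 496 in Crx KO and 990.0 in Otx2 KI, 3.92-fold lower. Tyrp1, an enzyme of melanin synthesis, read 1009.6, 298 and 533 (3.38-fold lower), and Dct, another, 10662, 3353 and 5706 (3.18-fold lower). Some epithelial genes did not follow them, with Mitf at log2 0.04 and Rrh at 0.31, and the isomerase gene Rpe65 read 865, 506 and 507 (log2 -0.77). The part of this tissue in the other differences was not tested, including those of Myo7a and Slc16a8, which it also expresses.

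Vessel genes were below 0 in 17 of 18 cases, with a median of -0.43, 0 past 2-fold and a summed signal of 36816 in wild-type and 29683 in Crx KO. Microglia genes had a median of -0.34 with 13 of 16 below 0. Fcrls was the 1 past 2-fold (log2 -1.04, and -0.73 with normexp), and the summed signal was 30181 and 35232, of which Itgam gave 16837 and 24619. Red cell genes (7 measured, median -0.56, summed signal 55240 and 38676) and lens genes (14 measured, median -0.51, summed signal 1347 and 1006) had 0 past 2-fold. The share past 2-fold over all measured genes was 5.38%. The lens genes Mip, Lim2 and Crygb were not well above background on either array. The part of these cells in the differences was not tested.

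In the remaining lists the share past 2-fold ran from 0% to 17.4%, against 5.38% over all measured genes. It was highest for chemokine and cytokine genes (17.4%) and calcium-binding protein genes (12.9%). Calcium-binding protein genes had 4 of 31 lower (2 with normexp) and 0 higher, with a median of 0.12, Rcvrn and Cabp4 leading them. Chemokine and cytokine genes had 3 of 23 lower and 1 higher (2 and 0 with normexp, median -0.04), among them Ccl9 at log2 -3.44 (-1.81 with normexp) and Ccl27a at -1.96, whose near-identical copies its probes may also read. Cell cycle genes had 2 of 23 lower and 0 higher (median -0.27), Plk1 at -1.44 and Ccnb1 at -1.20 (-0.44 with normexp). Complement and MHC genes had 1 lower and 1 higher of 28 (-0.16), and 0 lower and 1 higher with normexp. Axon guidance genes had 1 and 1 of 43 (0.11), and Notch and bHLH genes 1 and 1 of 30 (0.03), and in both lists 0 were past 2-fold with normexp. Genes of G protein regulation had 2 of 30 lower (0.01, 1 with quantile normalization), both of photoreceptors, Rgs9bp (log2 -1.29) and Grk1 (log2 -1.05, -0.99 with quantile normalization and -0.59 with its probes averaged). Junction genes of the outer limiting membrane had Jam3 as the 1 higher of 18 (-0.05). Ciliary body and cornea genes had 1 higher of 9 (0.18), and 0 with normexp, and astrocyte (7 measured, 0.01) and muscle genes (5 measured, 0.09) had 0.

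Housekeeping families held close to wild-type. Of 82 genes of cytosolic ribosomal proteins 0 were past 2-fold, with a median of -0.03, and 0 of 48 proteasome genes and 0 of 17 genes of ATP synthase were. Zinc finger genes named Zfp had 6 lower and 3 higher of 357, and 3 and 2 with normexp. Over all measured genes the share past 2-fold was 5.38%. In all, 751 of the 863 genes past 2-fold were in none of the 42 lists, which hold 935 of the 16050 measured genes.

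Genes well above background on 1 array have only a bound. Past 2-fold, 129 of the 365 such genes on wild-type alone were lower, and 83 of the 363 on Crx KO alone were higher. The decreases were at least 117-fold for Mc1r, a melanocortin receptor of pigment cells, at least 60.3-fold for the cytokine gene Il7, at least 50.5-fold for Susd3 and at least 24.9-fold for Opn1sw, the short-wavelength cone opsin. In the other direction, Tecta, a matrix gene of the inner ear, was at least 50.6-fold higher and Cer1, a secreted antagonist of BMP and Nodal, at least 14.1-fold. Under normexp the log2 differences of the 6 were, in turn, -3.86, -3.20, -2.70, -1.99, 3.17 and 1.40. On the Otx2 KI array none of the 6 was well above background, so Tecta and Cer1 were high in Crx KO alone. Klk1b27, at least 54.2-fold higher (log2 3.24 with normexp), belongs to a family of near-identical kallikreins, so its probe may also read other members.

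Other probes of the same gene gave the within-array check. Of 115 lower genes with another measured probe, 87 (75.7%) had another probe 2-fold or more lower and 109 (94.8%) had all probes below 0. Of 67 higher genes, 42 (62.7%) had another probe 2-fold or more higher, and 3 had one 2-fold or more lower. Ranked by mean log2 signal of the 3 arrays, dimmer genes were more often past 2-fold in both directions. A gene's own decrease lowers that mean. In wild-type alone the lower genes had a median signal of 729, close to the 716 of all measured genes. Among the 3210 dimmest measured genes 4.70% were lower and 3.21% higher, and among the 3210 brightest 2.46% and 1.31%.

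By chromosome, the share of lower genes ran from 1.53% on the X chromosome to 4.76% on chromosome 4, and chromosome 7, which carries Crx, had 3.51% lower and 2.52% higher of 1312 measured genes. Among the 50 measured genes on each side of Crx, 6 were lower and 5 higher, 11% of the 100 against 5.38% over all genes, and among the 100 on each side 10 and 10. Besides Crxos, those within 50 included Obox6, a homeobox gene of the early embryo. Its signal was 65.6 on the wild-type array and 4558 on the Crx KO array (69.5-fold higher), and in Otx2 KI it was not well above background. Its family has near-identical copies beside it, so the probe may read several of them.

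**Figure D4:**
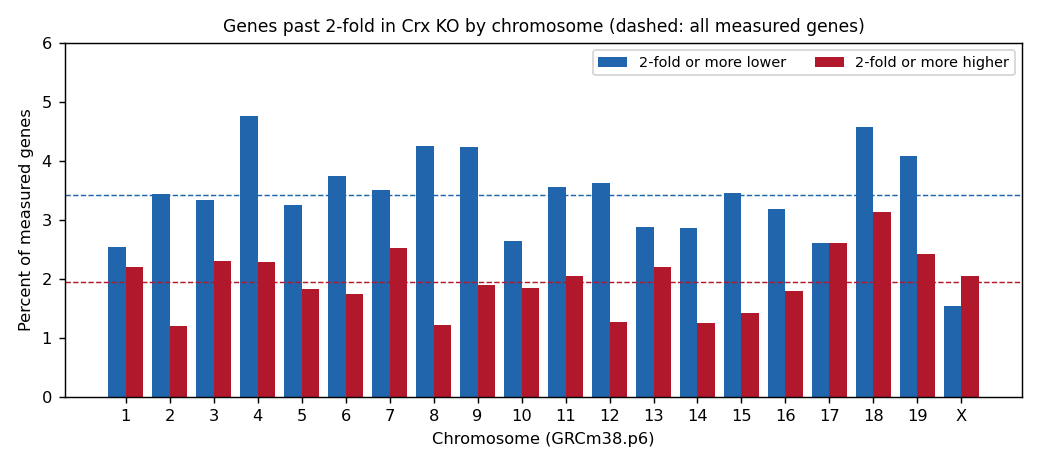
Percent of measured genes on each chromosome (x axis, GRCm38.p6) that were 2-fold or more lower (blue) or higher (red) in Crx KO, with dashed lines at 3.43% and 1.95%, the shares over all measured genes. Chromosome 4 has the highest share of lower genes (4.76%) and the X chromosome the lowest (1.53%).

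The promoters of the genes that moved were read for the letters TAATCC, the core bound by Crx and Otx2, in a RefSeq window (GRCm38.p6) from 250 bases before to 50 after the gene's start, on both strands. A window was found for 12717 of the 16050 measured genes. TAATCC was present in 6.01% of these windows, in 10.9% (45 of 411) of the windows of lower genes and in 5.71% (14 of 245) of those of higher genes. At 4-fold or more the shares were 11.8% (10 of 85) and 4.17% (2 of 48). Over all 27025 promoters given it was 7.16%. The windows of lower genes were poorer in G and C, with a median of 57.3% against 60% over all measured genes. Within the windows at or below that 60%, TAATCC was in 14.9% of the lower genes' and 8.58% of all windows, and above it in 4.49% and 3.31%. A match is a description of the letters and not of binding.

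Stretches around the match are shown for some genes that hold it, with the match in capitals and GGATTA being TAATCC read on the other strand. Nxnl2 and Rtbdn are the 2 of the 20 largest decreases with a match, of 12 that have a window. Of the 20 largest increases, 12 have a window and 0 of these hold a match. The other genes shown were picked for holding a match and after their values were seen. Ano2, a calcium-activated chloride channel gene, was 5.58-fold lower, Serinc4 4.67-fold, Abca4 3.92-fold and the myosin gene Myo1g 3.46-fold lower, and Samd7, a transcriptional repressor of photoreceptors, was 3.40-fold and Igsf21 2.47-fold higher. They lie, in the order printed, at chr13:51170843-51170908 (+ strand), chr8:84946842-84946907 (+), chr6:125690330-125690395 (+), chr2:121456784-121456873 (-), chr3:122044372-122044437 (+), chr11:6521102-6521167 (-), chr3:30746124-30746189 (+) and chr4:140246885-140246950 (-).
Nxnl2: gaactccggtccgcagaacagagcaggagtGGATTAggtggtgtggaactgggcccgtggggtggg
Rtbdn: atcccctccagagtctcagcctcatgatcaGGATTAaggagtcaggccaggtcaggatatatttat
Ano2: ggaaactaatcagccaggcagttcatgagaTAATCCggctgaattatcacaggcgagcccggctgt
Serinc4: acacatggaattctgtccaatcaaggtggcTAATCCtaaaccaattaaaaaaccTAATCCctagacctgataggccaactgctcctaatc
Abca4: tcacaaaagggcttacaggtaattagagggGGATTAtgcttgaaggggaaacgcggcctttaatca
Myo1g: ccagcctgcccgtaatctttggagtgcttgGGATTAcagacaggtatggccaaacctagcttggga
Samd7: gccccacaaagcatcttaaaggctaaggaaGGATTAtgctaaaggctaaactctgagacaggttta
Igsf21: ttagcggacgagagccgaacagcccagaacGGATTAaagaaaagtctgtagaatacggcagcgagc

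The match begins 152 bases before the start in Nxnl2, 119 in Rtbdn, 59 in Ano2 and 58 in Abca4, and Serinc4 holds 2 matches, 79 and 55 bases before it. In the 2 higher genes it begins 139 bases (Samd7) and 109 bases (Igsf21) before the start. All genes shown were picked for holding the core, so they do not compare lower with higher genes.

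The letters TGCTGA, a half-site of the Maf and Nrl leucine zipper factors, were in 16.4% of all measured windows, 19.0% of those of lower genes and 22.9% of those of higher genes, and in 35.4% (17 of 48) of the windows of genes 4-fold or more higher. In the windows at or below the 60% median of G and C they were in 30.4% of the higher genes' and 20.1% of all, and above it in 13.6% and 12.5%. The general homeodomain core TAATTA was in 2.96% of all windows, 4.14% of the lower genes' and 3.67% of the higher genes', and at 4-fold or more in 7.06% (6 of 85) and 4.17% (2 of 48). Its share among the 4-fold lower genes was thus also above that of all windows, but their windows had a median of 54.7% G and C. In the windows at or below the 60% median, TAATTA was in 6.27% of the 2-fold lower genes' and 5.28% of all. Above that median it was in 0.64% and 0.53%. TGCTGA lay close to the start in Fabp7 (chr10:57784884-57784922, +), 9 bases before it, and 136 bases before the start in Abca1 (chr4:53159996-53160061, -), both shown with it in capitals as higher genes picked after their values were seen.
Fabp7: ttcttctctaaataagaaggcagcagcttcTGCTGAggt
Abca1: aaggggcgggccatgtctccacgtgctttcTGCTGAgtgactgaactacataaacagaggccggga

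**Figure D5:**
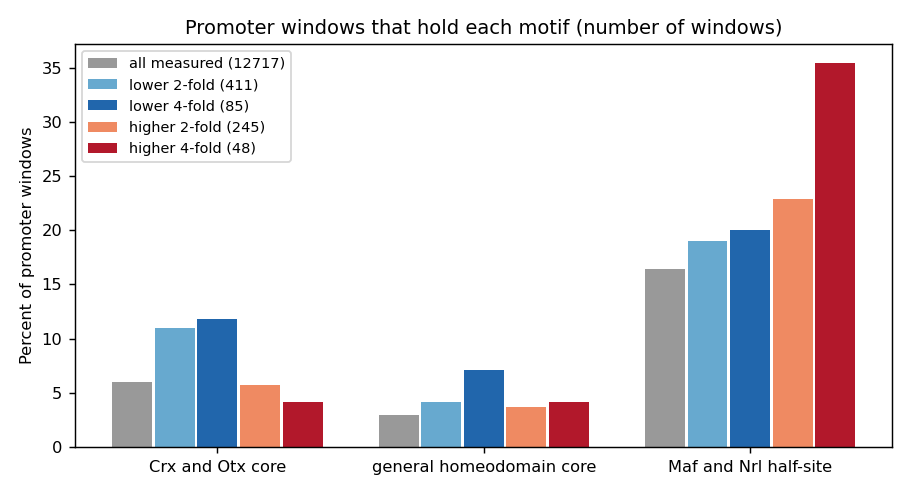
Percent of promoter windows (y axis) that hold TAATCC (Crx and Otx core), TAATTA (general homeodomain core) or TGCTGA (Maf and Nrl half-site) among all measured genes and genes 2-fold or 4-fold lower or higher in Crx KO, with the number of windows in the legend. The TAATCC bar is 10.9% for lower genes and 6.01% for all, and the TGCTGA bar is 35.4% for the 48 windows of genes 4-fold or more higher.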

How the data were processed

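The deposited scanner files give a Cy3 intensity for each spot, written by Agilent Feature Extraction 12.0.3.1 per the file headers, on an array design that refers to mm9. The processed signal, already background-subtracted, was used. Control spots and spots marked as outliers (126 to 136 per array) were left out, replicate spots were averaged, and log2 signal was scaled to each array's 75th percentile of non-control spots. Arrays were grouped by genotype label. Accessions matched without versions to RefSeq genes of GRCm38.p6 named 28331 of 55681 probes (50.9%). Where a gene had several probes, the brightest (by mean log2 signal of the 3 arrays) stood for it. It counted as measured when well above background on the wild-type and Crx KO arrays. With 1 array dim, an at-least fold was taken against its own dim signal or that array's lowest signal well above background, whichever was higher (10.2 for wild-type and 8.33 for Crx KO). Genes were called at 2-fold, with no p-value.

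The genes named were Crx, Otx2 and Crxos, the 20 largest changes each way among genes brighter than the median, the 6 largest at-least folds each way, and up to 4 members past 2-fold (or 2 where none was) per list and per symbol family. Clone names were counted, not named, not every such gene is printed, and some are not reported here. Other genes, such as single list members within 2-fold and Dct, Fos, Obox6 and Ptf1a, were named after their values were seen. The 42 lists (1017 symbols) and their members were chosen with earlier results of these data known. Promoter matches used the first RefSeq window listed for a gene.

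Python 3.11.15, numpy 2.4.6, pandas 2.3.3 and matplotlib 3.10.9 were used, with limma 3.58.1 in R 4.3.3 for normexp (offset 50) on median signals, since the files used here hold no mean signal column. The steps were tested on simulated data. The authors' deposited value table holds the processed intensity times 1 constant per array (wild-type 2.49, Crx KO 2.61), and was an alternative. The sources used here do not state the origin of these constants. Alternatives were normexp, quantile normalization, centring on the median gene, that table, averaged probes, no filter on dim probes, outlier spots kept, and other fold thresholds.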

Additional observations from a re-analysis of the deposited data

Results flagged for a closer look

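Probes without a gene symbol lie outside the comparison of genes. Of 14127 such probes well above background on both arrays, 769 differed by 2-fold or more between Crx KO and wild-type, 369 lower (2.61%) and 400 higher (2.83%). Of these probes 7721 are named in the files by a genome interval, and 179 of them were lower and 225 higher. No control array of the same genotype gives a background for this count.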

How the results depend on the processing

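With normexp, run on median signals with an offset of 50, so that input, background method and offset changed together, 328 genes were lower and 182 higher. At 1.5-fold 1324 were lower and 805 higher, and at 4-fold 122 and 61. Under quantile normalization, centring, the authors' deposited table, averaged probes, no filter on dim probes and outlier spots kept, the counts stayed within 1.5 times the main ones, at 532 to 680 lower and 303 to 398 higher. Of 174 named genes past 2-fold, 50 were within 2-fold with normexp and 0 changed direction under any of these settings. Signal over background limits the precision of folds of dim genes. Lower genes made up 63.7% of those past 2-fold, and 62.1% to 64.5% under the alternatives that keep the 2-fold threshold. The share of TAATCC windows among lower genes was 14.6% with normexp. The count of lower rod genes, 16, was 14 with quantile normalization and 15 with averaged probes, where Grk1 was at log2 -0.99 and -0.59. No paired analysis was possible because each genotype has 1 array, and for the same reason no replicate could be left out.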
